A study of Homo sapiens with 12 samples.

Results

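The genes described here drive the passage from G1 into S phase: the D cyclins CCND1, CCND2 and CCND3 with their kinases CDK4 and CDK6, the E cyclins CCNE1 and CCNE2 with their kinase CDK2, the transcription factor E2F1 and the phosphatase CDC25A. These 10 genes were taken by name from a table of 23686 gene symbols, and all 10 were in it. RNA was sequenced from HCT116, an established line from a colon cancer, and MDA-MB-231, an established line from a breast cancer. In each line the groups were anti-Hsp60N with 100 µM hydrogen peroxide (H2O2), control IgG with 100 µM H2O2, and control IgG without H2O2, with 2 libraries per group and 12 libraries in all. Anti-Hsp60N is an antibody named after Hsp60, a mitochondrial chaperonin, and the meaning of its N is not stated. The H2O2 exposure lasted 8 h. The culture medium differed between the lines, each with 10% fetal bovine serum, so a contrast of the lines is also one of the media. No group had the antibody without H2O2. The labels do not say whether the 2 libraries of a group are separate cultures, and p-values then measure the spread between these libraries, which may be technical. The design asks how the transcriptome of each line differs with H2O2, and how it differs under H2O2 when the antibody is present.

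In G1, D cyclins bind CDK4 or CDK6 and start the phosphorylation of the RB protein, which releases E2F factors. E2F1 then raises transcription of S-phase genes, of the E cyclins and of its own gene. Cyclin E with CDK2 completes RB phosphorylation and starts replication, and CDC25A removes the inhibitory phosphates from CDK2. Oxidants damage DNA, and cells commonly answer with CDK inhibitors such as p21, the product of CDKN1A, and with loss of CDC25A protein. Only RNA was measured here.

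E2F1 and CDC25A are shown first by the sequence just before their start sites, since they were the members searched that carry a word of the E2F family there. The sequences are RefSeq's for GRCh38.p14, each the 250 bases before the start, read 5′ to 3′ on the strand of the gene, in lower case with E2F words in capitals. The words searched on both strands were TTTCCCGC, TTTCGCGC, TTTGCCGC and TTTGGCGC. CCNE1, a textbook E2F target, is printed beside them as a promoter in which none of these words was found. E2F1 lies on chr20:33686386-33686635 (minus strand), CDC25A on chr3:48188418-48188667 (minus strand) and CCNE1 on chr19:29811741-29811990 (plus strand).
E2F1: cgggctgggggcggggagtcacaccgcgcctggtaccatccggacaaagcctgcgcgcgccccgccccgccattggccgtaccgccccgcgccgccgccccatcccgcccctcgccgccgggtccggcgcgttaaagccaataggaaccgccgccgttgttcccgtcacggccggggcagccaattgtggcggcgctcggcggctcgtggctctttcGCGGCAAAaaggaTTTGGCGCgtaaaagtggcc
CDC25A: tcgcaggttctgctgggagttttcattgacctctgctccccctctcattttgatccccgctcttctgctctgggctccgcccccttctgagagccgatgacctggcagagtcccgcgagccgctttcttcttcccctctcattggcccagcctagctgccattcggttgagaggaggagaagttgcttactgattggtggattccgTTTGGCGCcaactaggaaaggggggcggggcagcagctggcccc
CCNE1: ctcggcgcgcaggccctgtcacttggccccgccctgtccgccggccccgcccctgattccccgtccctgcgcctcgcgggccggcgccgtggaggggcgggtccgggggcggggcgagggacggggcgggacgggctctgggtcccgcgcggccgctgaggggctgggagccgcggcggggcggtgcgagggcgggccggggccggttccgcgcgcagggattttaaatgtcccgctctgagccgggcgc
In E2F1, the first capitals are TTTGCCGC on the opposite strand, beginning 33 bases before the start, and the second are TTTGGCGC on the printed strand, beginning 20 bases before it; they do not overlap. CDC25A has TTTGGCGC beginning 44 bases before its start. Across all 35116 promoters of the table, 979 (2.79%) hold 1 of these words in the same 250 bases. Of the 10 genes, 6 have an entry with 9 start sites in total, and E2F1 and CDC25A are the 2 with a word; CCND1, CCND2, CCNE2 and CDK2 have no entry. Of the 16 S-phase genes under E2F with an entry searched, 7 had a word and 9 had none. With H2O2 in MDA-MB-231, 3 of those 7 (MCM3, PCNA and POLA1) were called higher (limma, adjusted p under 0.05). So were 5 of those 9 (CDC45, CDC6, MYBL2, ORC1 and RRM2), beside 1.3% of all genes called higher. The number called higher among all 18 S-phase genes ranged from 2 to 10 over alternative fits, and the counts by word were not repeated over them. A match describes letters and is no evidence of binding.

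Levels are given in TPM, a read abundance corrected for transcript length and library size, so genes can be set beside each other. The 12 libraries each had 12411 to 12653 genes at 1 TPM or more, and libraries of 1 group correlated at 0.994 to 0.996 across genes on the log2 scale. EPCAM, an epithelial adhesion gene, stood at 332 to 370 TPM in HCT116, against 22.6 to 25.3 TPM in MDA-MB-231, and CDH1 (E-cadherin) at 25.6 to 33.7 TPM in HCT116, against 0.45 to 0.65 TPM in MDA-MB-231, where it was nearly absent. CLDN4 was the 1 of 8 epithelial markers that went the other way, at 70.5 to 94.2 TPM in HCT116, against 105 to 122 TPM in MDA-MB-231. The keratin gene KRT8 stood at 2532 to 2931 TPM in HCT116 and at 720 to 813 TPM in MDA-MB-231. VIM (vimentin), a mesenchymal marker, stood at 5.06 to 5.81 TPM in HCT116, against 2233 to 2551 TPM in MDA-MB-231. The summed TPM of 8 markers of leukocytes, fibroblasts and endothelium was 30.0 to 31.9 under anti-Hsp60N with H2O2, 28.3 to 29.8 under IgG with H2O2 and 26.4 to 28.8 under IgG in HCT116, and 196 to 213 under anti-Hsp60N with H2O2, 201 to 209 under IgG with H2O2 and 194 to 195 under IgG in MDA-MB-231. Most of it was CD68, a lysosomal gene high in macrophages, at 20.3 to 25.3 TPM in HCT116 and 183 to 204 TPM in MDA-MB-231. PECAM1, an endothelial adhesion gene, reached 0.02 TPM in HCT116 and stood at 1.86 to 2.9 TPM in MDA-MB-231, while PTPRC, CD3E and VWF did not exceed 0.17 TPM in any library. The summed TPM of 8 epithelial markers was 6110 to 6244 under IgG with H2O2 and 6299 to 6402 under IgG in HCT116, and 1847 to 1857 under IgG with H2O2 and 2073 to 2092 under IgG in MDA-MB-231. The sum of 5 mesenchymal markers was 274 to 291 TPM under IgG with H2O2 and 252 to 262 TPM under IgG in HCT116, and 3440 to 3457 TPM under IgG with H2O2 and 3678 to 3794 TPM under IgG in MDA-MB-231. The part of these shifts in the results on H2O2 was not tested. In bulk RNA, fewer cells expressing a gene and less RNA per cell cannot be told apart.

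Among the D cyclins, CCND1 was the most abundant of the 10 genes in all 6 groups. In HCT116, CCND1 had 292 and 287 TPM under anti-Hsp60N with H2O2, 281 and 288 TPM under IgG with H2O2, and 278 and 287 TPM under IgG. In MDA-MB-231 it had 309.8 and 337 TPM under anti-Hsp60N with H2O2, 310.5 and 328 TPM under IgG with H2O2, and 304 and 344 TPM under IgG. The libraries of the 3 treatments lay close together in each line, and those of IgG with H2O2 overlapped those of IgG in both. CCND3 set the lines apart. It had 33.1 and 32.9 TPM in HCT116 under anti-Hsp60N with H2O2, 37.9 and 34.8 TPM under IgG with H2O2, and 46.0 and 52.7 TPM under IgG. In MDA-MB-231 the CCND3 values were 218 and 207 TPM under anti-Hsp60N with H2O2, 198 and 202 TPM under IgG with H2O2, and 195.1 and 194.8 TPM under IgG. Both HCT116 groups with H2O2 lay below both HCT116 IgG libraries, with no overlap. CCND2 was nearly silent: HCT116 libraries ranged from 0 to 0.02 TPM, of which 3 were listed at 0, and MDA-MB-231 libraries from 0.52 to 0.85 TPM. CCND2 did not reach 1 TPM in any library, so it was left out of the tests, which cover the other 9 genes.

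CDK4, the main partner kinase of the D cyclins in these cells by level, ranked just below CCND1 in HCT116 and below CCND1 and CCND3 in MDA-MB-231. It ranged from 216 to 245 TPM over the 6 HCT116 libraries (median 222) and from 146 to 168 TPM over the 6 MDA-MB-231 libraries (median 157). CDK6 was far less abundant, at 31.9 to 38.2 TPM in HCT116 (median 33.9), against 14.8 to 17.3 TPM in MDA-MB-231 (median 16.4). CDK2, the kinase of the E cyclins, ranged from 98.2 to 107 TPM in HCT116 (median 104) and from 67.6 to 77.5 TPM in MDA-MB-231 (median 72.3). All 3 kinases were higher in every HCT116 library than in any MDA-MB-231 library. Such a separation was common: under IgG alone, the lines did not overlap for 89.7% of all genes tested. HCT116 was the higher line for 49.2% of all genes tested.

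**Figure D1:**
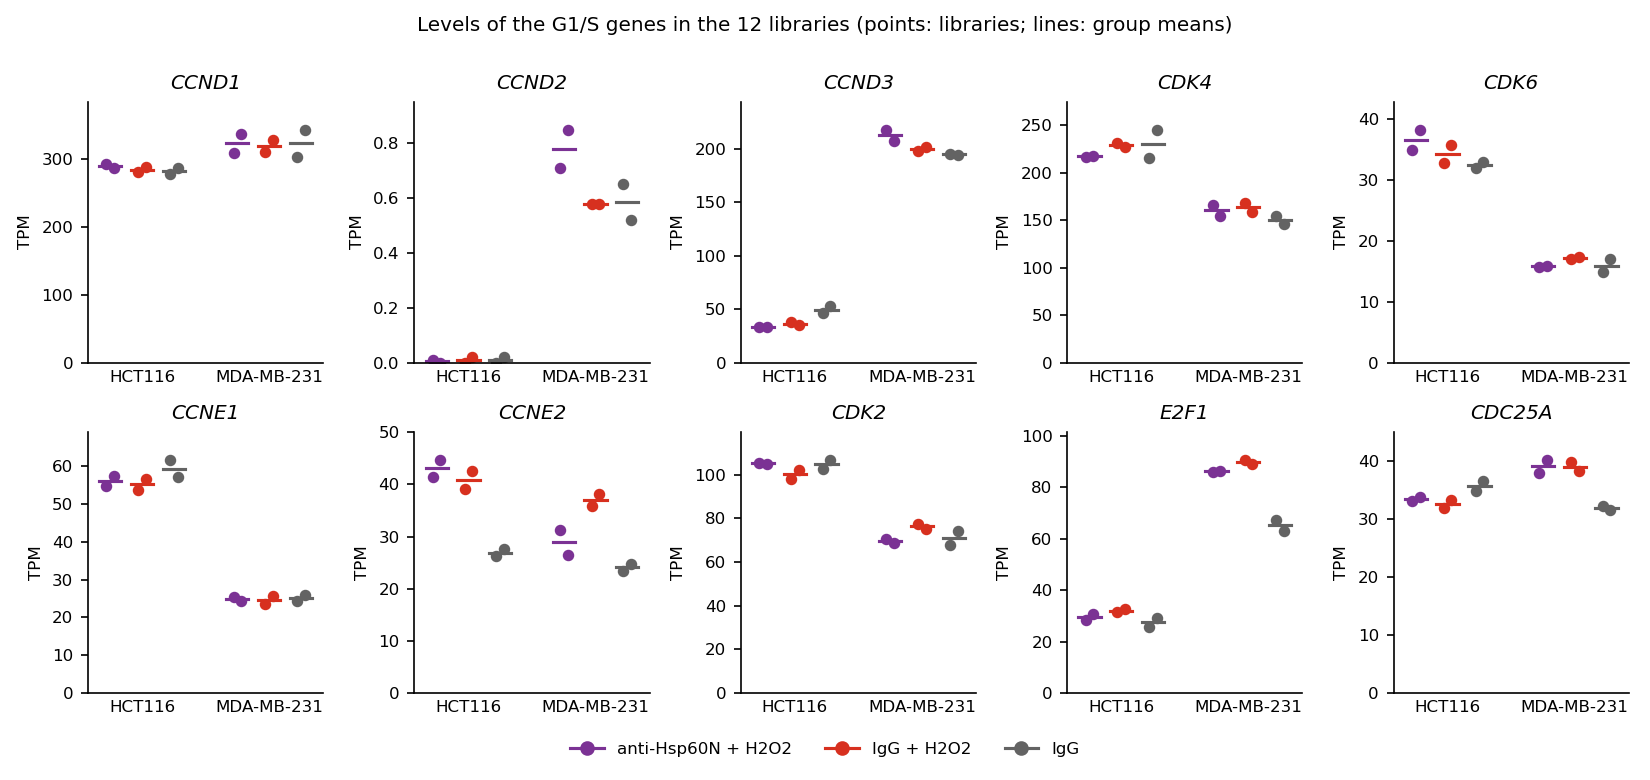
TPM of the 10 G1/S genes in each of the 12 libraries, by line and treatment, with each library as a point and the group mean as a line; each panel has its own axis from 0. CCNE2 was higher under IgG with H2O2 than under IgG in both lines, CCND3 was lower with H2O2 in HCT116, and E2F1 and CDC25A were higher with H2O2 in MDA-MB-231.

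The E cyclins behaved differently from each other. CCNE1 had 54.6 and 57.4 TPM in HCT116 under anti-Hsp60N with H2O2, 53.7 and 56.7 TPM under IgG with H2O2, and 61.7 and 57.0 TPM under IgG. In MDA-MB-231, CCNE1 had 25.5 and 24.4 TPM under anti-Hsp60N with H2O2, 23.6 and 25.6 TPM under IgG with H2O2, and 24.2 and 25.8 TPM under IgG. The treatments lay within a narrow band in each line. CCNE2 had 41.5 and 44.7 TPM in HCT116 under anti-Hsp60N with H2O2, 39.1 and 42.5 TPM under IgG with H2O2, and 26.2 and 27.7 TPM under IgG. In MDA-MB-231, CCNE2 had 31.2 and 26.5 TPM under anti-Hsp60N with H2O2, 35.9 and 38.2 TPM under IgG with H2O2, and 23.4 and 24.8 TPM under IgG. In HCT116 both groups with H2O2 were high and IgG was low, whereas in MDA-MB-231 the group with the antibody lay between the other two, with no overlap on either side.

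E2F1 had 28.4 and 30.7 TPM in HCT116 under anti-Hsp60N with H2O2, 31.6 and 32.5 TPM under IgG with H2O2, and 25.5 and 29.3 TPM under IgG. In MDA-MB-231, E2F1 had 86.1 and 86.4 TPM under anti-Hsp60N with H2O2, 90.7 and 89.3 TPM under IgG with H2O2, and 67.3 and 63.1 TPM under IgG. The MDA-MB-231 libraries with H2O2 all stood above both IgG libraries. CDC25A had 33.0 and 33.7 TPM in HCT116 under anti-Hsp60N with H2O2, 31.9 and 33.2 TPM under IgG with H2O2, and 34.7 and 36.5 TPM under IgG. In MDA-MB-231, CDC25A had 37.9 and 40.1 TPM under anti-Hsp60N with H2O2, 39.8 and 38.2 TPM under IgG with H2O2, and 32.3 and 31.5 TPM under IgG. With H2O2 the CDC25A libraries lay below the IgG libraries in HCT116 and above them in MDA-MB-231, without overlap.

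The order of the levels under IgG differed between the lines below CCND1. In HCT116 under IgG it ran from CCND1 (mean 282 TPM) through CDK4, CDK2, CCNE1, CCND3, CDC25A, CDK6, E2F1 and CCNE2 to CCND2 (0.01 TPM), and the libraries of E2F1 and CCNE2 overlapped. In MDA-MB-231 under IgG it ran from CCND1 (mean 324 TPM) through CCND3, CDK4, CDK2, E2F1, CDC25A, CCNE1, CCNE2 and CDK6 to CCND2 (0.585 TPM), and the libraries of CCNE1 and CCNE2 overlapped. With IgG and H2O2 in HCT116, CCNE2 stood just below CCNE1, and CCND3, CDK6, CDC25A and E2F1 followed within 32.0 to 36.4 TPM, each overlapping its neighbour.

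Under IgG, HCT116 had more RNA of the 3 kinases and CCNE1, and MDA-MB-231 had more CCND3 and E2F1. Of the 9 genes tested, 8 passed an adjusted p of 0.05 (limma, two-sided, Benjamini-Hochberg over 13956 genes), 5 higher and 3 lower in HCT116; across all genes 82.8% passed in this comparison (45.5% higher and 37.3% lower), so a count of 8 of 9 is close to what most genes did. CCNE1 averaged 59.4 ± 3.3 TPM in HCT116, against 25.0 ± 1.1 TPM in MDA-MB-231 (SD, n = 2 each), a log2 fold change of 1.21 (SE 0.07, adjusted p 1.13e-08 by limma). CDK6, CDK4 and CDK2 were higher in HCT116 by log2 fold changes of 0.99, 0.62 and 0.56. CCND3 was lower in HCT116, with a log2 fold change of -1.96 (SE 0.07), and E2F1 likewise, at -1.22 (SE 0.07). CCND1 (-0.19, adjusted p 0.0131) and CDC25A (0.15, adjusted p 0.021) differed little, and CCNE2 did not pass (0.15, adjusted p 0.1, limma). The CCND1 call was lost without MDA-MB-231 IgG replicate 2 (adjusted p 0.145), without HCT116 IgG replicate 1 (0.0622) and with quantile normalization (0.217), against a range of 0.000187 to 0.217 over its alternatives. The CDC25A call was lost under several alternatives, among them median-of-ratios scaling, which gave 0.03 (adjusted p 0.672, range 0.0155 to 0.672) and moved the median of all genes in this comparison to -0.01, against 0.11 as deposited.

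H2O2 in MDA-MB-231 raised CCNE2, E2F1 and CDC25A and left 6 of the 9 tested genes short of the threshold. These 3 of 9 stand beside 2.66% of all genes called in this comparison, 1.3% higher and 1.36% lower (limma, adjusted p under 0.05). CCNE2 rose by a log2 fold change of 0.60 (SE 0.08, adjusted p 0.00288), which is 1.52-fold on the scale of TPM + 1. E2F1 rose by 0.46 (SE 0.07, adjusted p 0.00512) and CDC25A by 0.28 (SE 0.05, adjusted p 0.0219). Both libraries with H2O2 were above both IgG libraries for 7 of the 9 members, these 3 among them, beside 30.4% of all genes tested. The other 6 had log2 fold changes between -0.03 (CCNE1) and 0.12 (CDK4), with adjusted p of 0.34 or more. Their intervals were narrow: the 95% interval of CCNE1 was -0.17 to 0.12, and that of CCND1 was -0.15 to 0.12. Fitted on MDA-MB-231 alone, CCNE2 had an adjusted p of 0.0886 (range over alternatives 0.00115 to 0.0886) and CDC25A of 0.0984 (range 0.0187 to 0.177). E2F1 lost its call without IgG with H2O2 replicate 1 (adjusted p 0.0606) or IgG replicate 2 (0.0518; range 0.00218 to 0.0606), and CDC25A without any 1 of the 4 libraries compared, at 0.0755 without IgG replicate 1, 0.091 without IgG replicate 2, 0.177 without IgG with H2O2 replicate 1 and 0.111 without IgG with H2O2 replicate 2.

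In HCT116, H2O2 raised CCNE2 by about as much, lowered CCND3 and raised E2F1 slightly. CCNE2 rose by a log2 fold change of 0.58 (SE 0.08, adjusted p 0.000489 by limma), or 1.5-fold. CCND3 fell by 0.43 on the log2 scale (SE 0.07, adjusted p 0.000792 by limma), to a mean of 36.4 ± 2.2 TPM under IgG with H2O2, against 49.3 ± 4.7 TPM under IgG (SD, n = 2 each). E2F1 rose by 0.22 (SE 0.07, adjusted p 0.0296), and CDC25A, at -0.13, did not pass (adjusted p 0.0994 by limma, range 0.0861 to 0.332). In all, 2 of 9 rose and 1 of 9 fell. HCT116 responded broadly, with 32.9% of all genes called in this comparison (15.4% higher and 17.5% lower), so 3 of 9 is close to the share among all genes. CCNE2 and CCND3 passed in all 22 alternatives run. The E2F1 call was lost with HCT116 fitted alone (adjusted p 0.126), without IgG replicate 1 (0.191, with a log2 fold change of 0.12), without IgG with H2O2 replicate 1 (0.0752) and without IgG with H2O2 replicate 2 (0.128), against a range of 0.00751 to 0.191.

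**Figure D2:**
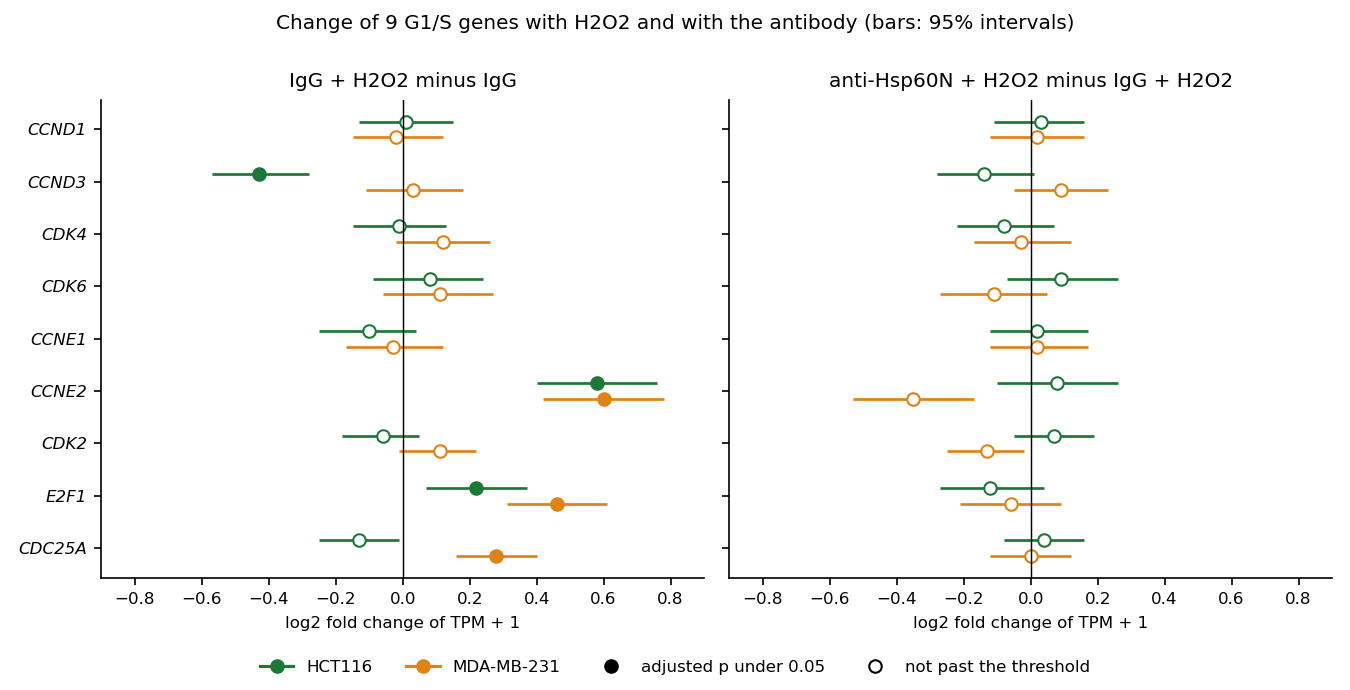
Log2 fold change of TPM + 1 for the 9 tested genes, IgG with H2O2 minus IgG on the left and anti-Hsp60N with H2O2 minus IgG with H2O2 on the right, with 95% intervals, HCT116 above MDA-MB-231 within each gene; filled points have an adjusted p under 0.05. CCNE2 stands at 0.58 in HCT116 and 0.60 in MDA-MB-231 on the left, CCND3 at -0.43 in HCT116, and all points on the right are open.

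The change with H2O2 differed between the lines for CCND3 and CDC25A. The difference of the log2 fold changes, HCT116 minus MDA-MB-231, was -0.46 for CCND3 (SE 0.09, adjusted p 0.00796 by limma), from -0.43 in HCT116 and 0.03 in MDA-MB-231. For CDC25A it was -0.41 (SE 0.08, adjusted p 0.0062), from -0.13 in HCT116 and 0.28 in MDA-MB-231. These were 2 of 9 genes, both lower in HCT116, beside 17.4% of all genes called, 7.65% higher and 9.72% lower in HCT116. A count of 2 of 9 is thus close to the share among all genes called in either direction. With median-of-ratios scaling the calls over all genes split into 1307 higher and 1041 lower, against 1067 higher and 1356 lower as deposited, and the CCND3 and CDC25A calls stayed past the threshold there and in each of their 21 alternatives. The E2F1 difference of -0.24 did not pass (95% interval -0.45 to -0.03, adjusted p 0.115 by limma), although it passed without HCT116 IgG replicate 1 (0.0265; range 0.0265 to 0.299). For CCNE2 the difference was -0.02 with a 95% interval of -0.27 to 0.24 (adjusted p 0.934, limma), so the rise in the 2 lines could differ by up to about that much.

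With the antibody under H2O2, none of the 9 genes passed the threshold in either line by limma. In HCT116, 0 of 9 passed and 0 of 9 had an unadjusted p under 0.05, beside 0.0215% of all genes called (0.00717% higher and 0.0143% lower) and 5.16% of all genes at that unadjusted p. In MDA-MB-231, 0 of 9 passed and 2 of 9 had an unadjusted p under 0.05, beside 0.0143% of all genes called and 13.1% of all genes at that unadjusted p. These 2 were CCNE2 and CDK2. CCNE2 averaged 28.9 ± 3.3 TPM under anti-Hsp60N with H2O2 and 37.0 ± 1.6 TPM under IgG with H2O2 (SD, n = 2 each), a log2 fold change of -0.35 (95% interval -0.53 to -0.17, adjusted p 0.242 by limma, range 0.122 to 0.737). CDK2 had 70.3 and 68.9 TPM under anti-Hsp60N with H2O2, against 77.5 and 75.3 TPM under IgG with H2O2, a log2 fold change of -0.13 (adjusted p 0.329 by limma). The libraries of the 2 groups did not overlap for 5 of 9 members, CCNE2 and CDK2 among them, beside 48.1% of all genes tested. In HCT116 the largest changes were CCND3 at -0.14 (95% interval -0.28 to 0.01) and E2F1 at -0.12 (95% interval -0.27 to 0.04), both with an adjusted p of 0.92 by limma. CDC25A in MDA-MB-231 stood at 0.00 with a 95% interval of -0.12 to 0.12. The antibody change did not differ between the lines for any of the 9 genes past the threshold (0 of 9 by limma, 3 of 9 at an unadjusted p under 0.05, beside 0.0287% of all genes called and 12.5% at that unadjusted p), and the CCNE2 difference was 0.43 (95% interval 0.17 to 0.68, adjusted p 0.348 by limma).

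Anti-Hsp60N with H2O2 was also set against IgG alone, which shares its IgG libraries with the H2O2 comparison. In HCT116, CCNE2 was higher by a log2 fold change of 0.66 (SE 0.08, adjusted p 0.000205 by limma) and CCND3 fell by 0.56 (SE 0.07, adjusted p 0.000129 by limma), which makes 2 of 9, beside 34.3% of all genes called (16.8% higher and 17.5% lower). E2F1 did not pass there (0.11, adjusted p 0.26 by limma, range 0.0471 to 0.962), although it did without HCT116 IgG replicate 2 (0.0471). In MDA-MB-231, E2F1 was higher by 0.40 (SE 0.07, adjusted p 0.0102) and CDC25A by 0.28 (SE 0.05, adjusted p 0.0188), 2 of 9 beside 3.4% of all genes called (1.5% higher and 1.9% lower). CCNE2 was not called in MDA-MB-231 in this comparison (0.25, SE 0.08, adjusted p 0.133 by limma, range 0.0925 to 0.428). E2F1 lost its call without MDA-MB-231 IgG replicate 2 (adjusted p 0.099) or anti-Hsp60N replicate 2 (0.0802; range 0.00418 to 0.099). CDC25A lost it with MDA-MB-231 fitted alone (0.0947), and without IgG replicate 1 (0.0549), IgG replicate 2 (0.111) or anti-Hsp60N replicate 2 (0.151; range 0.0153 to 0.151).

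Within families, the balance of the E cyclins moved toward CCNE2 with H2O2. CCNE2 made up 43.1% and 43.8% of the summed E cyclin TPM in HCT116 under anti-Hsp60N with H2O2, 42.1% and 42.8% under IgG with H2O2, and 29.8% and 32.7% under IgG. In MDA-MB-231 its share was 55.1% and 52.1% under anti-Hsp60N with H2O2, 60.4% and 59.9% under IgG with H2O2, and 49.1% and 49.0% under IgG. The groups did not overlap in MDA-MB-231, and in HCT116 both groups with H2O2 stood above IgG. The E cyclin total averaged 99.1 ± 4.3 TPM under anti-Hsp60N with H2O2, 96.0 ± 4.6 TPM under IgG with H2O2 and 86.3 ± 2.2 TPM under IgG in HCT116 (SD, n = 2 each). In MDA-MB-231 the total averaged 53.8 ± 4.0 TPM under anti-Hsp60N with H2O2, 61.6 ± 3.0 TPM under IgG with H2O2 and 49.1 ± 2.1 TPM under IgG (SD, n = 2 each). CCND3 gave 10.2% and 10.3% of the D cyclin TPM in HCT116 under anti-Hsp60N with H2O2, 11.9% and 10.8% under IgG with H2O2, and 14.2% and 15.5% under IgG, and between 36.1% and 41.3% in the 6 MDA-MB-231 libraries. CDK6 made up 11.8% to 14.9% of the CDK4 and CDK6 total in HCT116 and 8.66% to 10.4% in MDA-MB-231. These shares were not tested and are given as a description.

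**Figure D3:**
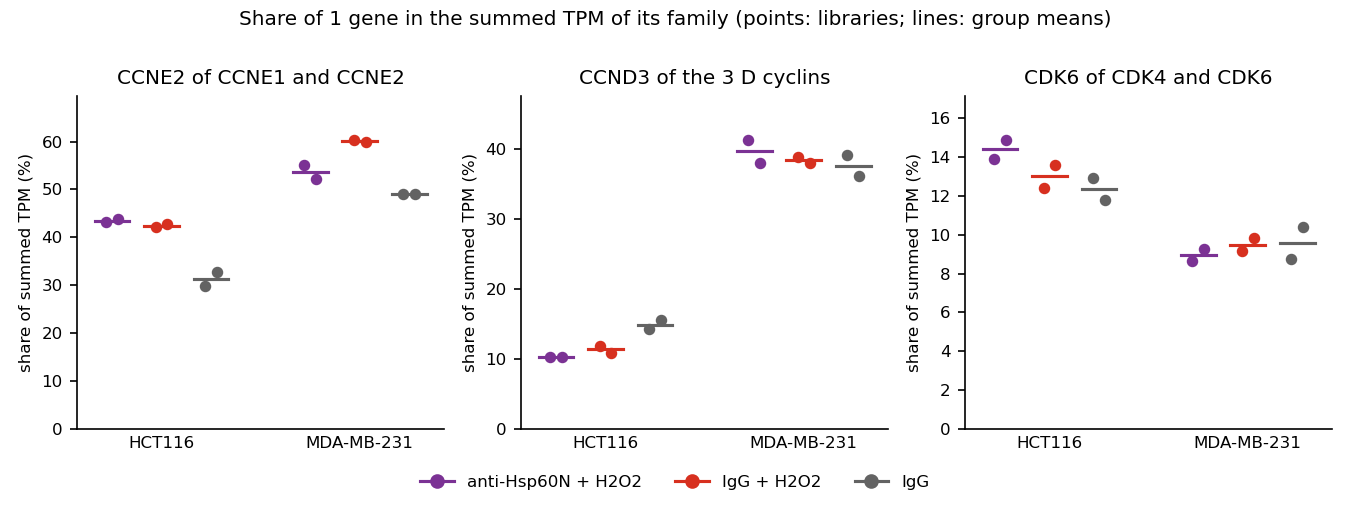
Share of CCNE2 in the summed TPM of the E cyclins, of CCND3 in that of the D cyclins and of CDK6 in that of CDK4 and CDK6, in percent, for each library (points) with group means (lines). In HCT116 the CCNE2 share is 42.1% to 43.8% with H2O2 and 29.8% to 32.7% under IgG.

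The inhibitors of these kinases were led by CDKN1A, which encodes p21. CDKN1A rose with H2O2 by a log2 fold change of 1.65 in HCT116 (adjusted p 2.47e-09 by limma), with a mean of 598 TPM under IgG with H2O2 and 190.4 TPM under IgG. In MDA-MB-231 it rose by 0.64 (adjusted p 3.88e-05), with 195 TPM under IgG with H2O2 and 125 TPM under IgG, and the difference between the lines was 1.0 (adjusted p 4.96e-06, limma). CDKN2C (p18) fell by 0.72 in HCT116 (adjusted p 6.56e-05) and by 0.38 in MDA-MB-231 (adjusted p 0.023). CDKN2D (p19) fell by 0.38 in MDA-MB-231 (adjusted p 0.0219) and stood at 0.06 in HCT116. CDKN2B (p15) rose by 0.67 in HCT116 (adjusted p 0.000633), where it averaged 4.8 TPM under IgG with H2O2 and 2.66 TPM under IgG. CDKN2A and CDKN2B were listed at 0 in all 6 MDA-MB-231 libraries. The fit pooled the spread of CDKN2B over all groups, those at 0 among them. Not every inhibitor that rose in HCT116 kept its call over the alternatives. CDKN2A (-0.09 in HCT116), CDKN1B, the p27 gene (-0.14 in HCT116 and -0.17 in MDA-MB-231), and CDKN1C (0.27 in HCT116 and 0.04 in MDA-MB-231) were not called. In all, 2 rose and 1 fell of 7 inhibitors in HCT116, beside 32.9% of all genes called. In MDA-MB-231, 1 rose and 2 fell of the 7, beside 2.66% of all genes called. CDKN2A and CDKN2B, at 0 throughout that line, could not be called there. The MDA-MB-231 calls of CDKN2C and CDKN2D were lost with that line fitted alone (adjusted p 0.0504 and 0.0893) and without any 1 of the 4 libraries compared (CDKN2C 0.0919 to 0.172, CDKN2D 0.0696 to 0.166).

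S-phase genes under E2F control, 18 in number, were counted in each line. In MDA-MB-231, 8 of 18 rose with H2O2 and 1 fell, beside 1.3% of all genes called higher and 1.36% lower, with a list median log2 fold change of 0.25, against 0.03 for all genes. Those of smallest p were RRM2, the ribonucleotide reductase subunit (0.45, 166 TPM under IgG with H2O2 and 121 TPM under IgG), CDC6, a loader of the replicative helicase (0.39), and PCNA, the polymerase clamp (0.38). The 1 that fell was CCNA2, the S and G2 cyclin (-0.35, adjusted p 0.00766 by limma). In HCT116, 1 of 18 rose and 6 fell, beside 15.4% of all genes called higher and 17.5% lower, with a list median of -0.10, against -0.01 for all genes. CCNA2 (-0.51), TYMS, thymidylate synthase (-0.30), and MCM6, a helicase subunit (-0.27), had the smallest p there, and PCNA was the 1 that rose (0.19, adjusted p 0.0163 by limma). The difference of the H2O2 change was called lower in HCT116 for 11 of 18 and higher for 0 (limma), beside 9.72% of all genes called lower and 7.65% higher, with a median of -0.33 against -0.04 for all genes; MCM3 (-0.46), TYMS (-0.46) and ORC1 (-0.70) led by p. Over the alternatives, the number that rose in MDA-MB-231 ranged from 2 to 10, the number that fell in HCT116 from 4 to 8, and the number with a called difference from 6 to 13. The RRM2 call was lost with MDA-MB-231 fitted alone (adjusted p 0.053), and so was the CCNA2 call there (0.103), which was also lost without IgG with H2O2 replicate 1 (0.0794), IgG replicate 2 (0.0564) or IgG with H2O2 replicate 2 (0.065). PCNA in HCT116 was lost with that line fitted alone (0.0914), without IgG replicate 2 (0.105) and without IgG with H2O2 replicate 2 (0.0887).

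G2 and M genes were lower with H2O2 in both lines. Of 10, 9 fell in HCT116, beside 17.5% of all genes called lower, and 8 fell in MDA-MB-231, beside 1.36% of all genes. The list median log2 fold change was -0.51 in HCT116, against -0.01 for all genes, and -0.56 in MDA-MB-231, against 0.03. PLK1, a mitotic kinase, averaged 150.1 ± 6.4 TPM under IgG with H2O2 and 279 ± 7 TPM under IgG in HCT116 (SD, n = 2 each), a log2 fold change of -0.89 (adjusted p 1.39e-06 by limma). In MDA-MB-231, PLK1 averaged 82.4 ± 2.5 TPM under IgG with H2O2 and 174 ± 3 TPM under IgG (SD, n = 2 each), a log2 fold change of -1.07 (adjusted p 4.81e-06 by limma). AURKA fell by 0.85 in HCT116 and by 0.96 in MDA-MB-231, BUB1, a spindle checkpoint kinase, fell by 0.77 in HCT116, and CCNB1, the mitotic cyclin, fell by 1.05 in MDA-MB-231. The members not called were CDC25B in HCT116 (-0.16) and CDK1 (-0.16) and FOXM1 (-0.15) in MDA-MB-231. The number called ranged from 8 to 10 in HCT116 and from 6 to 8 in MDA-MB-231 over the alternatives.

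Partners of the G1/S genes in RB repression and protein turnover were counted by list, beside 32.9% of all genes called in HCT116 and 2.66% in MDA-MB-231 with H2O2, and 16.7% of all genes at an unadjusted p under 0.05 in MDA-MB-231. Of 8 pocket proteins and subunits of the MuvB complex, 0 were called in MDA-MB-231 by limma (2 of 8 at an unadjusted p under 0.05). In HCT116, 1 of them fell (RBBP4, -0.17). Among 9 other E2F and DP factors, E2F7, an atypical repressor, rose by 0.85 in HCT116 (adjusted p 4.28e-06 by limma; 31.6 TPM under IgG with H2O2 and 17.0 TPM under IgG), TFDP1 (-0.26) and E2F4 (-0.19) fell there, and E2F6 was the 1 called in MDA-MB-231 (0.28, adjusted p 0.0475 by limma). Of 12 genes listed for the turnover of G1/S proteins, mostly ubiquitin ligase parts, 2 rose and 3 fell in HCT116 and 1 fell in MDA-MB-231. CKS1B (0.34) rose and SKP2 (-0.54), the F-box protein for p27, fell in HCT116, and CKS2 fell in both lines (-0.48 in HCT116 and -0.59 in MDA-MB-231). Of 9 CDK activating and checkpoint kinases, CDK7 (0.46) and ATM (0.32) rose and WEE1 (-0.28) fell in HCT116, and 0 were called in MDA-MB-231 by limma (4 of 9 at an unadjusted p under 0.05). Several of these calls were lost when 1 library of the comparison was left out (RBBP4 without any 1 of the 4, with adjusted p of 0.0556 to 0.138) or with a line fitted alone (SKP2 0.0564, CDK7 0.0628), and the E2F6 call was lost under most alternatives. With the antibody under H2O2, 0 genes of these 7 lists were called in either line by limma; at an unadjusted p under 0.05 the lists had 0 or 1 gene each in HCT116 and 0 to 6 in MDA-MB-231, where the S-phase list had 6 of 18, beside 5.16% of all genes in HCT116 and 13.1% in MDA-MB-231.

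**Figure D4:**
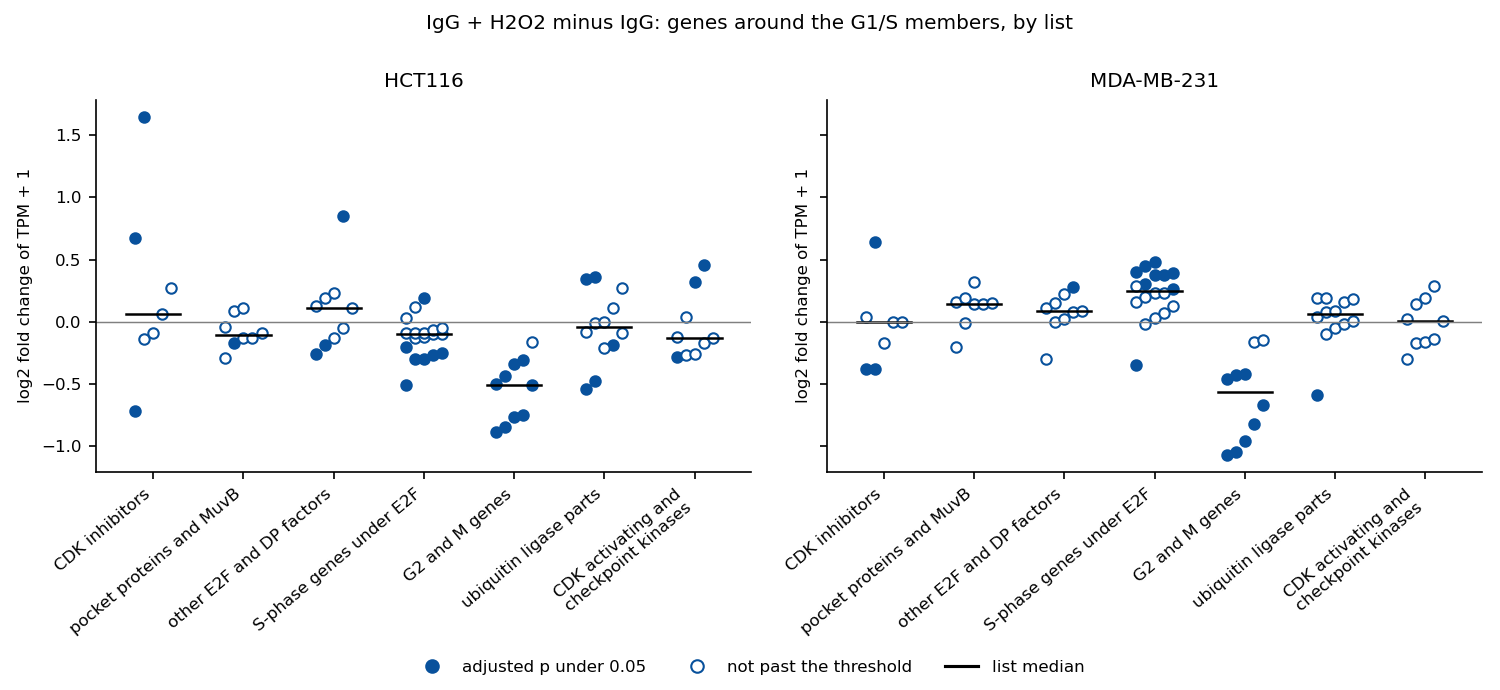
Log2 fold change of TPM + 1, IgG with H2O2 minus IgG, of the genes in 7 lists around the G1/S genes, in HCT116 on the left and MDA-MB-231 on the right; each point is a gene, filled where the adjusted p is under 0.05, and black lines are list medians. The G2 and M genes have medians of -0.51 in HCT116 and -0.56 in MDA-MB-231, and the S-phase genes medians of -0.10 in HCT116 and 0.25 in MDA-MB-231.

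The genes whose changes were most like those of the called G1/S genes were found over the 4 log2 fold changes with H2O2 and with the antibody in the 2 lines, among 10570 genes with a mean of at least 5 TPM. The nearest genes to CCNE2 were farther from it than those of the other members were from theirs: UHRF1BP1 was nearest at a root mean square difference of 0.146 on the log2 scale, then ZBTB21 (0.152) and TMEM170A (0.162). CCND3 was matched closely by SRM, the spermidine synthase gene (0.017), MRPS12, a mitochondrial ribosomal protein gene (0.020), and TAF6, a TFIID subunit gene (0.030). E2F1 was nearest to FAM111A (0.059), GPANK1 (0.066) and ATHL1 (0.067). CDC25A was nearest to MICB (0.024), MYBL2, an E2F target and transcription factor (0.027), and RFC2, a clamp loader subunit (0.028). With H2O2, CDC25A changed by -0.13 in HCT116 and 0.28 in MDA-MB-231. In the same order, MICB changed by -0.16 and 0.26, MYBL2 by -0.12 and 0.30, and RFC2 by -0.18 and 0.30. The genes were picked by these values, so their closeness is no result, and a shared regulation was not tested.

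Some of the genes share exon sequence with a neighbour on the opposite strand (GENCODE release 29 on GRCh38), and without strand in the counting their reads cannot be told apart. CCNE2 on chromosome 8 shares 1629 of its 4397 exon bases with INTS8, an Integrator subunit gene. INTS8 changed with H2O2 by -0.32 in HCT116 (adjusted p 0.00145 by limma), where CCNE2 rose, and by 0.05 in MDA-MB-231 (adjusted p 0.698). CDK4 shares 1369 of its 3168 exon bases with TSPAN31, which ranged from 9.58 to 17.7 TPM, and CDK2 shares 89 bases with PMEL, which ranged from 1.03 to 3.53 TPM. CCND1 shares 497 of its 4830 exon bases with LTO1, listed in the table under its older symbol ORAOV1, which ranged from 13.5 to 32.0 TPM and changed with H2O2 by 0.23 in HCT116 (adjusted p 0.0443 by limma) and by 0.07 in MDA-MB-231 (adjusted p 0.697). CDK2 also shares 565 of its 3894 exon bases with AC025162.1, and CCND2 shares 126 of 7157 with CCND2-AS1; neither neighbour was matched in the table.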

How the data were processed

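The authors deposited TPM per gene in 1 table for all 12 libraries. Tools listed in the submitters' processing notes are bcl2fastq 2.20, STAR and RSEM, with the build hg19 and no roles or order. Not given in the sources used here are the versions of STAR and RSEM, the annotation, the strand setting and any RNA selection. TPM keeps no read depth, so the depth behind each value is unknown and no counting interval is given. Library columns were matched by the label in each description.

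From the deposited TPM, log2(TPM + 1) was computed, so fold changes understate those of low genes. Genes with at least 1 TPM in at least 2 of 12 libraries were kept (13956). Group means of the 6 groups were fitted and compared two-sided in limma 3.58.1 (R 4.3.3) with its variance trend, at 6 residual degrees of freedom and a prior of 4.63, with Benjamini-Hochberg adjustment over all genes kept and a threshold of 0.05, for 9 comparisons. The fitting was tested on simulated data, with 200 of 13956 genes changed in the H2O2 comparison of MDA-MB-231. Of these, 0% were called at a log2 change of 0.25, 82% at 0.5 and 99.5% at 1. Of the calls, 3.53% were false at 0.5 and 7.44% at 1. A missing call is thus no sign that a change near 0.25 is absent. Intervals are 95% intervals of that fit.

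Alternatives were pseudocounts of 0.1 and 5, a mean of at least 5 TPM or no filter, median-of-ratios scaling, quantile normalization, no variance trend, each line fitted alone, a replicate block and each of the 12 libraries left out. All 10 genes were reported in all comparisons. From each of the 7 lists, up to 3 called genes of smallest p in a comparison were named, with every CDK inhibitor; others named from the lists, such as the single gene that went the other way or the members not called, were chosen after their values were seen. The genes and lists were chosen with earlier results of these data known. Promoters were matched to RefSeq by symbol, with no coordinates moved between builds. Plots used Python 3.11.15 and matplotlib 3.10.9.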

Additional observations from a re-analysis of the deposited data

Results flagged for a closer look

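CCND3, a D cyclin, changed differently with H2O2 in the 2 lines by a test of the difference itself. The log2 fold change of IgG with H2O2 over IgG was -0.43 in HCT116 and 0.03 in MDA-MB-231, a difference of -0.46 (SE 0.09, adjusted p 0.00796 by limma), and both HCT116 libraries with H2O2 stood below both IgG libraries.

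CDC25A, the phosphatase of CDK2, met the same test. Its log2 fold change was -0.13 in HCT116, which did not pass by itself, and 0.28 in MDA-MB-231, a difference of -0.41 (SE 0.08, adjusted p 0.0062 by limma). The media differed between the lines, so line and medium cannot be told apart for either gene. Among all genes, 17.4% were called in this test, so 2 of 9 is close to that share.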

How the results depend on the processing

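Over 22 alternatives for comparisons within a line and 21 for those between lines, no called change reversed direction among the genes followed. Those were the tested G1/S genes, the CDK inhibitors, the nearest genes, and up to 3 called genes of smallest p per list and comparison within a line. Other genes named, such as INTS8 and ORC1, were not followed. The number of G1/S genes called with H2O2 in MDA-MB-231, 3 of 9, became 1 with that line fitted alone and ranged from 1 to 3 when 1 library was left out. Against IgG, anti-Hsp60N with H2O2 in MDA-MB-231 called 2 of 9, which became 1 with the line fitted alone and ranged from 0 to 2 when 1 library was left out. Fewer libraries enter these fits. The other counts of G1/S genes stayed within 1.5 times their value.

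Counts over all genes depended on single libraries. In MDA-MB-231 the 371 genes called with H2O2 became 86 with the line fitted alone and 116 to 184 without 1 of the 4 libraries compared, and split into 151 higher and 284 lower with median-of-ratios scaling or 157 higher and 242 lower with quantile normalization, against 181 higher and 190 lower as deposited. Against IgG, the 475 genes called for anti-Hsp60N with H2O2 in MDA-MB-231 became 101 with the line fitted alone, 301 without IgG replicate 1, 163 without anti-Hsp60N replicate 2 and 145 without IgG replicate 2. In HCT116 the 4592 genes called with H2O2 became 3000 without IgG with H2O2 replicate 2, and the 4792 called for anti-Hsp60N with H2O2 against IgG became 2953 without anti-Hsp60N replicate 2. The 2423 genes whose H2O2 change differed between the lines became 1251 to 1571 without 1 library with IgG and H2O2. The counts with the antibody under H2O2 ranged from 1 to 7 in HCT116 (3 as reported) and from 0 to 3 in MDA-MB-231 (2 as reported), and the 4 genes whose antibody change differed between the lines became 0 at a mean of at least 5 TPM.

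The labels do not say whether replicate numbers pair the libraries, and they were not treated as pairs in the reported fit. Deviations from the group means correlated across genes at 0.012 to 0.164 in MDA-MB-231 and at -0.127 to 0.0552 in HCT116. Such low correlations cannot show that the libraries are unpaired. With a replicate block the counts of G1/S genes called with H2O2 were 3 in each line, as without it. CDC25A lost its call in HCT116 against MDA-MB-231 under IgG (adjusted p 0.0993 by limma). The difference of its H2O2 change between the lines kept its call. A block with the numbers of HCT116 IgG with H2O2 crossed, chosen after seeing the data, called 4794 genes with H2O2 in HCT116. TPM hold no depth, so how precisely low genes such as CCND2 were counted is unknown.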
